A study of Mus musculus with 4 samples.

Results

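The subunits of the Polycomb repressive complexes PRC1 and PRC2 were followed as transcripts in sorted retinal cells of postnatal day 2 mice. They were taken by gene symbol from a fixed list of 32 genes, 9 for PRC2 and 23 for PRC1, and all 32 were found once each among the 22690 genes of the deposited table. All 32 are protein-coding genes and all passed the level filter, a mean normalized count of at least 10 over the 4 libraries. The cells came from freshly dissected C57BL/6 retinas, spent a short time in serum-free culture, and were flow-sorted at 4N, the DNA content of cells between replication and division. Of the 4 libraries, 2 come from GFP-negative cells labelled wild type and 2 from GFP-positive cells labelled Casz1 cKO, a conditional knockout of the zinc finger transcription factor Casz1, so GFP status and genotype cannot be told apart. The sources used here do not give the Cre driver, the source of GFP or the animals behind a library. Each group has a library with each of 2 column tags, called A and B here. The design text speaks of independent experiments but ties no tag to one, so p-values measure only the spread between these libraries, which may be technical. The question, per the series title, is which transcripts differ in progenitors with the conditional Casz1 mutation.

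Polycomb proteins keep developmental genes silent. PRC2 places methyl groups on lysine 27 of histone H3 through its catalytic subunit Ezh2 or Ezh1, held in a core with Eed, which reads the mark, and Suz12, the scaffold. PRC1 attaches ubiquitin to histone H2A through the RING proteins Ring1 and Rnf2, paired with a PCGF protein. Canonical PRC1 adds a CBX protein, which binds the PRC2 mark, and a PHC protein, while variant PRC1 carries Rybp or Yaf2 instead. In many tissues Ezh2 is the catalytic subunit of dividing cells and Ezh1 that of cells that have left the cycle.

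Casz1 itself, the targeted gene, had normalized counts of 13162 and 11995 in wild type and 8687 and 10772 in cKO, a log2 fold change of −0.38 (limma, adjusted p = 0.771), so the transcript was lower in both cKO libraries but present. The sources used here do not state which part of the gene is deleted. Wild-type libraries held 75832360 (A) and 83753377 (B) reads in genes, and cKO libraries 22326119 (A) and 89473701 (B). cKO library A stood apart, with correlations of 0.902 to 0.918 with the others against a highest value of 0.993 among the other libraries, and 9179 genes at 0 against 5793 to 6169. The members had 172 to 8637 reads each in that library and at least 871 in every other. Retinal progenitor markers were abundant, and 8 of 9 were higher in cKO, all but Pax6, with a median log2 fold change of 0.22. Their normalized counts summed to 401886 and 402682 in wild type and 583860 and 449024 in cKO. Ccnd1 made up most of these sums, with 235937 and 223698 in wild type and 388895 and 253407 in cKO. Genes of G2 and M phase were higher in 9 of 10 cases, with sums of 94395 and 93776 in wild type and 138193 and 102793 in cKO. In each marker list limma called 0 genes, while 11 microglial and 7 rod markers had an unadjusted p under 0.05. Rod markers were also present and were lower in cKO, with 9 of 10 negative and sums of 99434 and 87532 in wild type and 52732 and 58755 in cKO. Microglial markers were present too, all 12 were lower, and their sums were 21303 and 19749 in wild type and 1227 and 8866 in cKO, with only Aif1 at 0 in cKO library A. In bulk libraries fewer cells of a type and less RNA per cell cannot be told apart.

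No Polycomb subunit passed the test between the groups, and most had fold changes near 0. With all 4 libraries limma called 0 of 32 members at an adjusted p under 0.05, against 0% of the 14480 genes tested, and the lowest adjusted p among members was 0.771. At an unadjusted p under 0.05 limma gave 0 members, against 1.89% of all genes, and edgeR and DESeq2 on recovered reads also called 0 members, with 0 and 1 at an unadjusted p under 0.05. The median log2 fold change of the members was −0.10, against −0.03 over all tested genes. In cKO 21 members (65.6%) were lower and 11 higher, against 53.3% lower among all tested genes. The split of the members became 16 lower and 16 higher when each library was rescaled to the same median. Before rescaling, the median of cKO library A lay at −0.11 from the mean of the library medians on the log2 scale. After rescaling, the median log2 fold change of the members was −0.01, against 0.06 over all tested genes, so the members still lay below all genes. Without cKO library A, and with the deposited scaling, the medians were alike, −0.0126 for the members and −0.0123 for all tested genes. Size separated the members: 17 of 32 (53.1%) lay within 0.2 of 0 on the log2 scale, against 39.6% of all tested genes. Cbx7 (−1.99), Phf1 (−0.94) and Phc3 (−0.80) lay lowest, while Phc2 and E2f6 (0.36 each) lay highest. The groups did not overlap, lower in cKO, for 9 members, against 22.3% of all genes, and did not overlap, higher in cKO, for 3, against 17.2%. As a share of 32 these counts are 28.1% and 9.38%, the first near its background and the second below it.

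**Figure D1:**
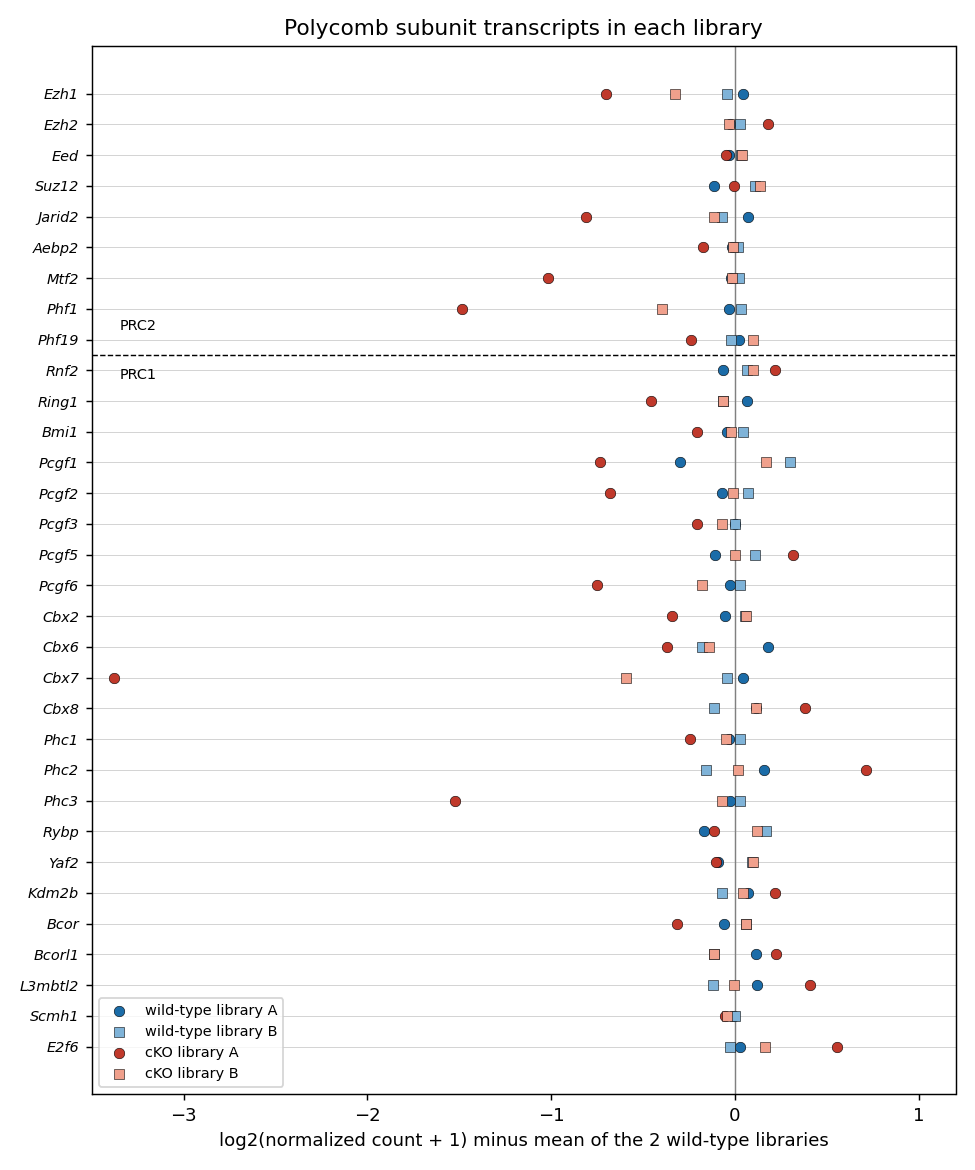
Each point is 1 library, placed by log2(normalized count + 1) minus the mean of the 2 wild-type libraries for that gene; circles are tag A and squares tag B, blue wild type and red cKO. cKO library A is the farthest left or right for most members. Cbx7, Phf1 and Ezh1 also have cKO library B well to the left, and the wild-type libraries themselves lie apart for Pcgf1 and Cbx6.

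**Figure D2:**
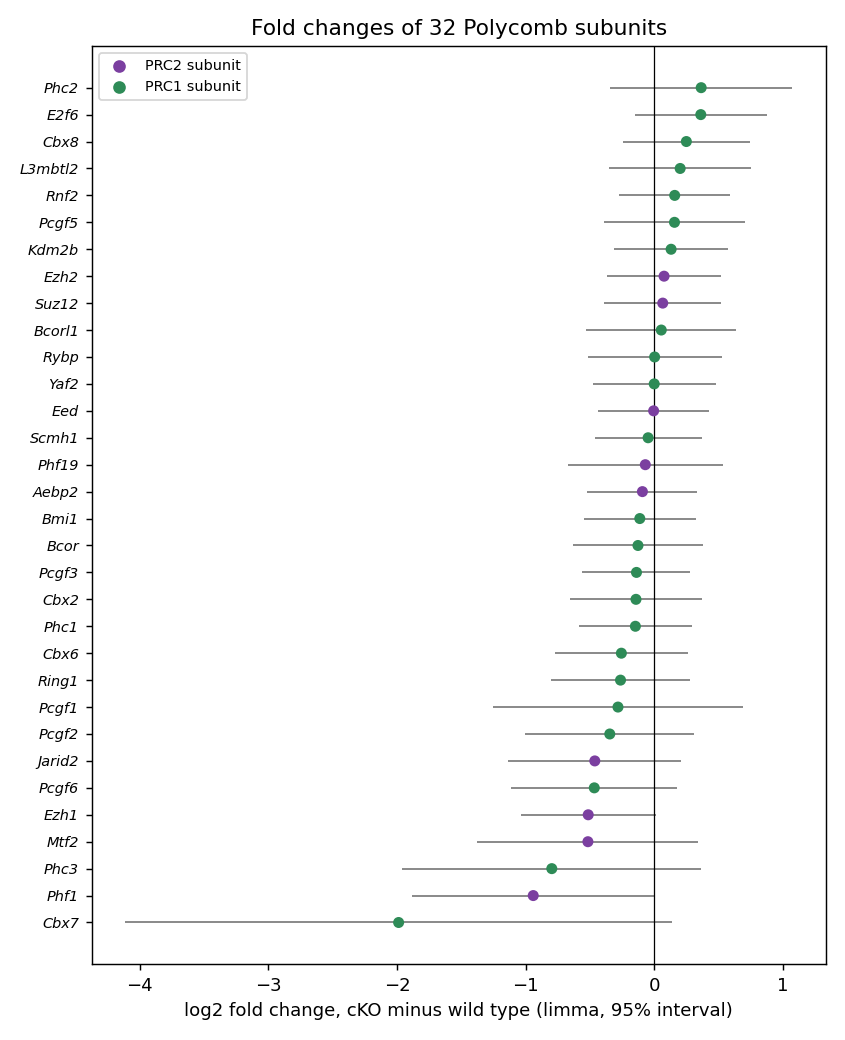
Points give the limma log2 fold change, cKO minus wild type, of each member with its 95% interval. All 32 intervals include 0, and those of Phf1 (−1.89 to 0.003) and Ezh1 (−1.04 to 0.01) reach it only at their upper end.

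Most of the spread came from cKO library A. It held the lowest of the 4 values for 21 members and the highest for 9, against 44.7% and 37.8% of all genes. At tag A, 12 of 32 members had a log2 ratio over 0.5 in size, against 44.8% of all genes. The median tag A ratio was −0.19 over the members and −0.05 over all tested genes. At tag B the count over 0.5 in size was 1, which is Cbx7, against 8.81% of all genes. The median there was −0.03 over the members and −0.003 over all tested genes, and 27 of the 32 member ratios were under 0.2 in size. cKO library B lay between the wild-type libraries for 12 members, against 38.9% of all genes. Length moved with the tag A ratio: over 5 equal bins of exon length, the median of all tested genes went from 0.23 in the shortest bin to −0.29 in the longest, and 10 members were in the longest bin and 2 in the shortest. At tag B the same medians were 0.05 and −0.02. Across the 32 members themselves the rank correlation of length with the tag A ratio was 0.04, a description over genes that share the same libraries. The part of length in these results was not tested.

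**Figure D3:**
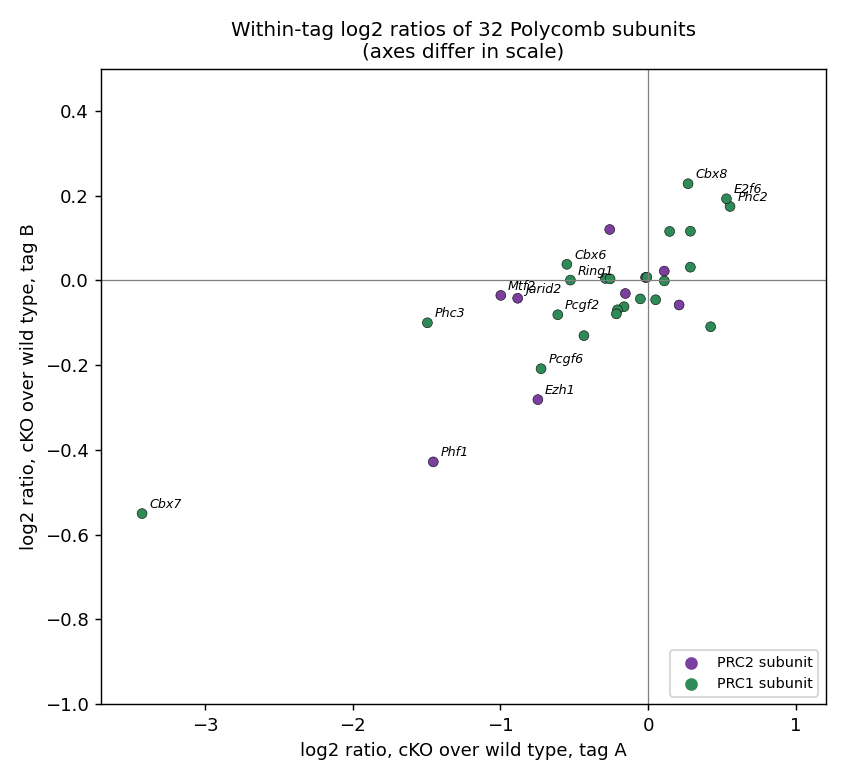
Log2 ratios of cKO over wild type at tag A (horizontal) and tag B (vertical) for the 32 members, PRC2 in purple and PRC1 in green, with scales that differ between the axes. Cbx7, Phf1 and Ezh1 are the lowest 3 on the vertical axis, and Cbx8, E2f6 and Phc2 the highest 3.

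Start-site sequences are shown for the 3 members that were lowest at tag B (Ezh1, Phf1 and Cbx7) and, as the alternative to Ezh1, for Ezh2. Each is 300 bases from RefSeq on GRCm38.p6, 250 before to 50 after the start, 5′ to 3′ on the gene's own strand. For Cbx7 the RefSeq start lies well inside the annotated gene span, 79915807 to 79971119, and not at its 5′ end. Capitals mark a word of the E2F class, searched as TTTCCCGC, TTTCGCGC, TTTGCCGC or TTTGGCGC on both strands.
Ezh1, chr11:101226414-101226713, minus strand: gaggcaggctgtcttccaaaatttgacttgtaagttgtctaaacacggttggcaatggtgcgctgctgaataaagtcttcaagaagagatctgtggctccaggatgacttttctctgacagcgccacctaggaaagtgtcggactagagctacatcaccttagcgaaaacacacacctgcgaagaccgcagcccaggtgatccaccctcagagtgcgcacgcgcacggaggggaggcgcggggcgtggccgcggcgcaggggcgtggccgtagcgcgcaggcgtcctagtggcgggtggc
Phf1, chr17:26932877-26933176, plus strand: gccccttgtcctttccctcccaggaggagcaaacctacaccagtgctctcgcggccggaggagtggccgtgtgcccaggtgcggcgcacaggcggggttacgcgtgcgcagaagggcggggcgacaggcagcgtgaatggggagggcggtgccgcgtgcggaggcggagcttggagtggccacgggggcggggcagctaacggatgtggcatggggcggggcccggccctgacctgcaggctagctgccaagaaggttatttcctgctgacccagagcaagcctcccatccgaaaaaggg
Cbx7, chr15:79932597-79932896, minus strand: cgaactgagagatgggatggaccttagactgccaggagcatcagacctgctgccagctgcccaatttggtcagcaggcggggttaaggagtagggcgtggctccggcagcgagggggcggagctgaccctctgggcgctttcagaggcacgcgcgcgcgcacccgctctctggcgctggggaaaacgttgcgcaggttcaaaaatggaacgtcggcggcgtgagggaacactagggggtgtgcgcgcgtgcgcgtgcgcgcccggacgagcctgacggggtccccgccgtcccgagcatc
Ezh2, chr6:47594981-47595280, minus strand: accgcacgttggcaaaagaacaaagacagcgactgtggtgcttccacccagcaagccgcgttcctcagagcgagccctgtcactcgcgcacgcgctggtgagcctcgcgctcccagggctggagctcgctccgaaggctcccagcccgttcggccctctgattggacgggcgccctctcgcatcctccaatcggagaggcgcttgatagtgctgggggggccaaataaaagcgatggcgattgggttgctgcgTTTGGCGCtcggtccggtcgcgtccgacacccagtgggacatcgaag
Of these, only the Ezh2 window holds such a word, TTTGGCGC at bases 254 to 261 of the window, beginning 3 bases after the start. Windows were found for 28 of the 32 members, and those of Ezh2, Suz12 and Phf19 hold an E2F word, 3 of 28 genes or 7.32% of their 41 windows, against 2.27% of all 32851 windows. The homeodomain word TAATCC, the class bound by the photoreceptor factor Crx, was searched too and is in windows of Kdm2b, L3mbtl2 and Phc1, again 7.32% of the members' windows, against 7.06% of all. No member has words of both classes, and a window with overlapping words counts once. A match is a description of letters, not of binding.

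Fold changes of the PRC2 core were near 0, apart from that of Ezh1. Ezh2 (chromosome 6, 47530139 to 47595341 of GRCm38) had a normalized count of 13354 in wild type A, 13874 in wild type B, 15440 in cKO A and 13327 in cKO B, the order kept from here on. The groups overlapped, with cKO library A the highest and cKO library B the lowest. The log2 fold change was 0.08 ± 0.18 (SE), with a 95% interval of −0.37 to 0.52 (limma, adjusted p = 0.878). Suz12, the scaffold, had 13111 and 15302 in wild type and 14138 and 15538 in cKO, also overlapping, with a log2 fold change of 0.07 (95% interval −0.39 to 0.52). Eed, the reader of the mark, had 3287 and 3429 in wild type and 3247 and 3446 in cKO. The cKO values enclosed the wild-type ones, and the log2 fold change was −0.01 (95% interval −0.43 to 0.42), a sign that reversed with median rescaling.

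Ezh1, the other methyltransferase, was the core subunit with the largest difference. Ezh1 (chromosome 11, 101191115 to 101226463) had 2780 and 2610 in wild type and 1657 and 2147 in cKO. Both cKO libraries lay below both wild-type ones, with means of 2695 ± 121 (SD, n = 2) and 1902 ± 347 (SD, n = 2). This gave a log2 fold change of −0.51 ± 0.21 (SE; limma, adjusted p = 0.771). It was −0.75 between the tag A libraries and −0.28 between the tag B libraries. Set against Ezh2 in the same library, which removes any scaling between libraries, the log2 ratio of Ezh1 to Ezh2 was −2.26 and −2.41 in wild type and −3.22 and −2.63 in cKO. The mean difference, cKO minus wild type, was −0.59, with −0.96 within tag A and −0.22 within tag B, and the exact two-sided permutation test gave p = 0.33, the smallest that 2 against 2 libraries allow. Rod marker sums were lower in the same libraries, and their part in the Ezh1 value was not tested.

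PRC2 accessory subunits, which direct the core to its sites, all had negative fold changes with the deposited scaling, while Aebp2 and Phf19 turned positive with median rescaling. Apart from Phf1 they were near wild type in cKO library B. Phf1, a Tudor-domain Polycomb-like protein (chromosome 17, 26933052 to 26937908), had 1786 and 1866 in wild type and 651 and 1386 in cKO. Both cKO values lay below both wild-type values, at 35.7% of the wild-type mean in library A and 75.9% in library B. The log2 fold change was −0.94 ± 0.38 (SE; limma, adjusted p = 0.771). Of the exon bases of Phf1, 43.8% overlap antisense genes, among them Cuta. The kit was strand-specific, but the strand setting of the counting is not stated in the sources used here, so the value of Phf1 is uncertain, as are in smaller part those of 9 other members with antisense overlap. Cuta had 2335 and 2264 in wild type and 2288 and 2586 in cKO, a log2 fold change of 0.08.

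Jarid2, a cofactor that helps PRC2 to its targets, had 6298 and 5694 in wild type and 3414 and 5530 in cKO. The groups did not overlap, but cKO library B was only just below wild-type library B, with ratios of −0.88 for tag A and −0.04 for tag B. The log2 fold change was −0.46 ± 0.27 (SE), with a 95% interval of −1.13 to 0.21 (limma, adjusted p = 0.771). Mtf2, a second Polycomb-like protein, had 4797 and 4944 in wild type and 2403 and 4825 in cKO, so that cKO library B lay between the wild-type values. Its log2 fold change was −0.52, made of −0.997 for tag A and −0.04 for tag B. Aebp2, a zinc finger cofactor, had −0.09, and Phf19, the third Polycomb-like protein, had −0.07 with ratios of −0.26 at tag A and 0.12 at tag B. Over the 9 PRC2 members the median was −0.09, with −0.26 for tag A and −0.04 for tag B. With median rescaling the PRC2 median was 0.0005, against 0.06 over all tested genes.

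The RING ligases of PRC1 differed from each other in the direction of their fold changes, though both tag B ratios were positive and small. Rnf2 (RING1B) had 5951 and 6515 in wild type and 7253 and 6658 in cKO. Both cKO libraries lay above both wild-type ones, though cKO library B only just. The log2 fold change was 0.16 (95% interval −0.27 to 0.59; limma, adjusted p = 0.774), from 0.29 for tag A and 0.03 for tag B. Ring1 had 2447 and 2227 in wild type and 1699 and 2229 in cKO, with cKO library B between the wild-type values. Its log2 fold change was −0.26 (95% interval −0.80 to 0.28), from −0.53 for tag A and 0.001 for tag B. The log2 ratio of Ring1 to Rnf2 was −1.28 and −1.55 in wild type and −2.09 and −1.58 in cKO, a mean difference of −0.42 (exact two-sided permutation p = 0.33, the smallest possible), with −0.03 within tag B.

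PCGF proteins, which define the PRC1 subtypes, were lower in 5 of 6 cases, by log2 fold changes from −0.11 (Bmi1) to −0.47 (Pcgf6). Bmi1 (PCGF4), a canonical subunit known for progenitor self-renewal, had 6015 and 6376 in wild type and 5370 and 6107 in cKO. cKO library B lay between the wild-type values, and the log2 fold change was −0.11 (95% interval −0.55 to 0.32). Pcgf2 (MEL18), its paralogue, had 4718 and 5187 in wild type and 3087 and 4904 in cKO, again with cKO library B in between, and a log2 fold change of −0.35. The log2 ratio of Bmi1 to Pcgf2 was 0.35 and 0.30 in wild type and 0.80 and 0.32 in cKO. These ratios overlapped between the groups, and the exact two-sided permutation test gave p = 0.667.

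Among the variant PCGF proteins, Pcgf6, the partner of L3mbtl2 and E2f6 in PRC1.6, had 1460 and 1518 in wild type and 883 and 1314 in cKO. Both cKO libraries were below wild type, with a log2 fold change of −0.47 ± 0.26 (SE; limma, adjusted p = 0.771). Within tags it was −0.72 for A and −0.21 for B. Pcgf1, the partner of Kdm2b and Bcor, had a wide spread within wild type, 661 and 1002, and a log2 fold change of −0.28 (95% interval −1.26 to 0.69). Pcgf3 had −0.14 with groups that did not overlap, and Pcgf5 had 0.16 with ratios of 0.42 at tag A and −0.11 at tag B.

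Cbx7 had the largest difference of all members. Cbx7, a chromodomain protein of canonical PRC1 (chromosome 15, 79915807 to 79971119), had 5172 and 4860 in wild type and 481 and 3319 in cKO. Both cKO libraries lay below both wild-type ones, at 9.58% of the wild-type mean in library A and 66.2% in library B, and they also lay far from each other. The means were 5016 ± 221 (SD, n = 2) and 1900 ± 2007 (SD, n = 2), so the cKO spread exceeded the cKO mean. The log2 fold change was −1.99 ± 0.85 (SE), with a 95% interval of −4.11 to 0.14 (limma, adjusted p = 0.771). On recovered reads it was smaller, −1.38 with edgeR (adjusted p = 0.858) and −1.39 with DESeq2 (adjusted p = 0.951). The tag A libraries differed by −3.43 and the tag B libraries by −0.55, and the latter lies at percentile 6.15 of all tested genes. The value in cKO library A rests on 172 reads, against 5020 to 7041 in the other libraries. Microglial markers moved with it, with median log2 ratios of −4.23 (tag A) and −1.21 (tag B) and summed levels as given above, and rod markers had −0.81 and −0.69; their part in the Cbx7 value was not tested. An antisense gene, Apobec3, overlaps 100 of the 6487 exon bases of Cbx7 and had 266 and 293 in wild type and 0 and 147 in cKO.

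The other CBX genes of the list lay closer to 0. Cbx8 had 3652 and 3125 in wild type and 4403 and 3661 in cKO. Both cKO libraries lay above both wild-type ones, though cKO library B only just, and the log2 fold change was 0.25 (95% interval −0.24 to 0.74), with 0.27 at tag A and 0.23 at tag B. Cbx2 had −0.14, and its cKO library B, at 7568, lay above both wild-type libraries (7005 and 7543). Cbx6 had −0.26, from −0.55 for tag A and 0.04 for tag B, and shares 563 exon bases with the same-strand gene Npcd.

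The PHC and SCM proteins, which link PRC1 complexes through their SAM domains, ranged widely. Phc3 had 4527 and 4700 in wild type and 1607 and 4385 in cKO. Both cKO libraries lay below both wild-type ones, but cKO library B was at 95.1% of the wild-type mean and cKO library A at 34.8%. The log2 fold change was −0.80 ± 0.47 (SE; limma, adjusted p = 0.771), made of −1.49 at tag A and −0.10 at tag B. Phc3 has the longest summed exons of all members, 17485 bases. Phc2 had 16436 and 13165 in wild type and 24132 and 14859 in cKO, with overlapping groups and a log2 fold change of 0.36. Phc1 had −0.15 and Scmh1, the SCM protein of the list, had −0.05. For Scmh1 the 4 values were close together, 4336 and 4353 in wild type and 4180 and 4223 in cKO. Its 95% interval was −0.46 to 0.37, and its sign reversed with median rescaling.

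Fold changes of the variant PRC1 subunits other than the RING and PCGF proteins lay between those of Bcor (−0.13) and E2f6 (0.36). E2f6, a repressive E2F-family factor of PRC1.6, had 3340 and 3215 in wild type and 4823 and 3674 in cKO. Both cKO libraries lay above both wild-type ones, with means of 3277 ± 88.2 (SD, n = 2) and 4248 ± 812 (SD, n = 2). This gave a log2 fold change of 0.36 ± 0.21 (SE; limma, adjusted p = 0.771), with 0.53 at tag A and 0.19 at tag B. S-phase genes were higher in the same libraries, 10 of 10, with medians of 0.40 (tag A) and 0.16 (tag B) and sums of 152070 and 165748 in wild type and 209640 and 183927 in cKO; their part in the E2f6 value was not tested. L3mbtl2, an MBT-repeat protein of the same complex, had 0.20 with overlapping groups. Kdm2b, which brings PRC1 to CpG islands, had 0.13, Bcor had −0.13 and Bcorl1 had 0.05. Rybp and Yaf2, the alternative adaptors, had 0.002 (95% interval −0.52 to 0.52) and −0.0007 (95% interval −0.48 to 0.48).

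Levels between genes were compared as normalized count per kb of exon. Suz12 had the highest mean over the 4 libraries, 2937, followed by Phc1 (2670), Phc2 (2428) and Ezh2 (2096), and Pcgf5 (120.5), Bcorl1 (127) and Phf19 (144) had the lowest. These 4 could not be ordered one step from the next, since their ranges overlapped: Suz12 ranged from 2651 to 3142, Phc1 from 2364 to 2861, Phc2 from 1864 to 3416 and Ezh2 from 1996 to 2312. Of the summed Ezh1 and Ezh2 level, Ezh1 made up 15.7% and 14.4% in wild type and 8.79% and 12.6% in cKO, so both cKO libraries had the smaller share. In the PCGF family Bmi1 led in every library, at 33.2% to 38.9% of the family sum, with Pcgf2 next at 25.2% to 30.5%. In the CBX genes of the list Cbx2 led, at 40.3% to 46.7%. Cbx7 made up 19.5% and 19.3% of that sum in wild type and 2.42% and 13.5% in cKO, and Cbx8 24.3% and 21.9% in wild type and 39.2% and 26.2% in cKO. Phc2 was the leading PHC gene in cKO library A, at 58.2%, and Phc1 in the other 3, at 51.5% to 57.3%. Rnf2 exceeded Ring1 in every library, at 65.65% to 77.0% of their sum, and Yaf2 exceeded Rybp, at 63.8% to 66.2%.

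**Figure D4:**
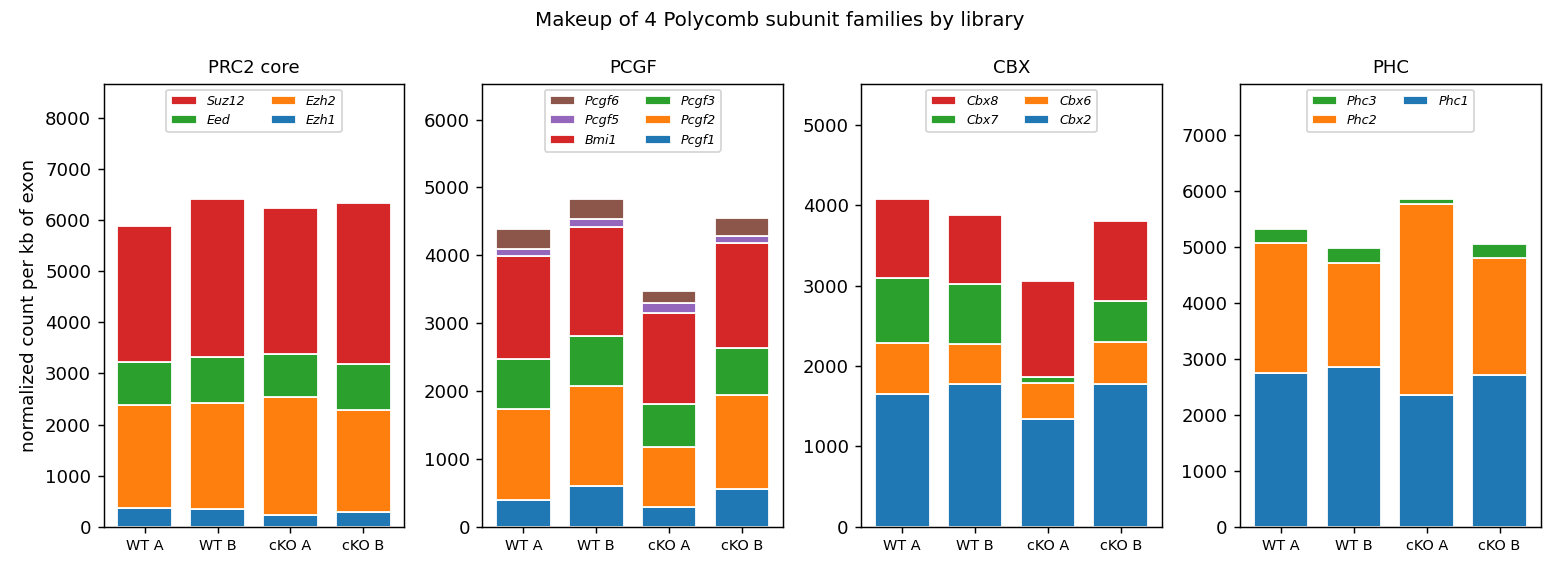
Stacked bars give the normalized count per kb of exon of each family member in the 4 libraries, for the PRC2 core and for the PCGF, CBX and PHC genes. The PRC2 core sums lie between 5883 and 6419, while the CBX sum is 3059 in cKO library A against 3803 to 4082 in the others.

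Other genes of the pathway were read from lists, and limma called 0 of them, with 0 at an unadjusted p under 0.05 in each of the next 3 lists. Of 10 genes of the PR-DUB complex and H2A deubiquitinases, which remove the PRC1 mark, 7 were lower and the median log2 fold change was −0.16. Its members with the highest levels were Hcfc1, a host cell factor, at 0.09, and Ogt, the O-GlcNAc transferase, at −1.49. Ogt had 26451 and 24752 in wild type and 3758 and 22193 in cKO, so its value came mostly from cKO library A. Of 13 H3K27 demethylases and COMPASS genes, which oppose PRC2, 9 were lower with a median of −0.26, −0.43 at tag A and −0.06 at tag B. Kmt2b, a methyltransferase of lysine 4, had −0.65, with −1.24 at tag A and −0.06 at tag B. Ncoa6, a COMPASS cofactor, had −0.26, with −0.43 at tag A and −0.09 at tag B. Of 17 other partners 10 were higher, with a median of 0.04. The histone chaperone Rbbp4, part of PRC2 and of other complexes, had 0.35 and Skp1a, of variant PRC1.1, had 0.35.

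Genes known as Polycomb targets in other tissues were mostly silent. Of 40 such genes, 19 had no read in any library, 11 had reads below the level filter, and 10 were tested, 5 higher and 5 lower, with a median log2 fold change of −0.17. The Hox genes of that list were all below the filter. Cdkn2a, the cell cycle inhibitor locus that Bmi1 is known to repress, had 91.9 and 87.0 in wild type and 109 and 103 in cKO. The cKO values lay just above wild type, and the log2 fold change was 0.24 (limma, adjusted p = 0.856). The highest levels were those of Lhx9 (log2 fold change 0.02) and Tbx5 (−0.37), both retinal transcription factors. Pax2, of the optic stalk and astrocytes, is named because of its values. It had 322 and 184 in wild type and 11.2 and 76.7 in cKO, so that both cKO libraries were lower. The value of 11.2 in cKO library A rests on few reads, since 3 reads there stand for 8.38. Pax2 was the 1 gene of the list with an unadjusted limma p under 0.05 (limma, adjusted p = 0.771).

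The calls depended on which cKO library was used. Without cKO library A limma called 0 of 32 members, against 0.522% of all genes, and 1 had an unadjusted p under 0.05. Cbx7 was then at −0.60 (limma, adjusted p = 0.212), Phf1 at −0.40, Ezh1 at −0.33 and Phc3 at −0.07. Without cKO library B limma called 9 members as lower, against 26.4% of all genes, and 2 as higher, Phc2 and E2f6, against 12.8% of all genes. The lower ones were Cbx7, Phf1, Phc3, Mtf2, Jarid2, Ezh1, Pcgf2, Pcgf6 and Pcgf1, with log2 fold changes from −3.38 (Cbx7) to −0.68 (Pcgf2). Both fits assume that the lone cKO library varies like the wild-type pair. As shares of the 32 members, the lower calls without cKO library B lay near that of all genes, and the higher calls below it. The authors' deposited table gives an adjusted p under 0.05 to 0 of the 32 members, against 0.292% of the genes with a value there. The smallest unadjusted p among members in the authors' deposited table is 0.00825, for Cbx7, with an adjusted p of 0.814.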

How the data were processed

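The deposited values are normalized counts per the file headers, that is, a signal for each gene in each library. Per the submitters' processing notes the authors used FastQC, TopHat, HTSeq and DESeq with build mm10; the sources used here give no versions, annotation release or strand setting for counting, while the design text names a stranded mRNA kit. In every column 100% of values came out as whole reads (tolerance 0.01 reads), which gave recovered reads. Both cKO columns are headed replicate 2, so columns were assigned to groups only, and the 2 tags in their names only name them. From the deposited table, the authors' p-value and its adjusted p-value were read as given.

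A mean of 10 or more normalized counts kept 14480 genes, for which log2(normalized count + 1) was compared with limma 3.58.1 (moderated, mean-dependent prior, two-sided) under Benjamini-Hochberg adjustment over all of them at 0.05. Fold changes on this scale understate those of low genes. The fit was tested on simulated data with a common dispersion for all genes and no library set apart except by depth. That test does not measure how often real differences would be found in these libraries. Alternatives were other pseudocounts, filters and scaling, no trend, edgeR 4.0.16 and DESeq2 1.42.0 on recovered reads, a replicate block and leaving out each library. With 2 libraries per group the exact tests cannot go below 0.33. The members and lists were chosen with earlier results of these data known. Every member is named; the core subunits, and members whose groups did not overlap with a fold change of at least 0.3 on the log2 scale, are given with the value in every library, and of other lists the 2 genes with the highest mean. Exon lengths and positions come from GENCODE M21 (GRCm38), where 96.1% of gene identifiers were found, and start-site sequences from RefSeq. R 4.3.3 and Python were used.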

Additional observations from a re-analysis of the deposited data

How the results depend on the processing

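The count of 0 members called held with other pseudocounts, filters, rescaling, no trend, edgeR, DESeq2 and the replicate block. With each library left out it ranged from 0 to 11, and 11 came only without cKO library B; the cause was not tested. The median log2 fold change of the 32 members ranged from −0.21 to −0.01 over left-out libraries, against −0.05 to −0.01 over all tested genes. With the replicate block the median was −0.10 and 4 members had an unadjusted limma p under 0.05; the labels give the tags no meaning, and libraries of 1 tag deviated together with a correlation of 0.258 across genes. Of all genes limma with the block called 0 (1375 at an unadjusted p under 0.05) and DESeq2 without it called 1, Nr2e3. Of the 32 members 18 kept their sign under every alternative run, and 14 reversed under at least 1. The sign reversed with median rescaling for Eed (0.0877), Aebp2 (0.0005), Phf19 (0.0231), Yaf2 (0.0923) and Scmh1 (0.0449), and the PRC2 median moved from −0.09 to 0.0005. The median of all tested genes moved up as well, from −0.03 to 0.06. The sign reversed for Eed and Yaf2 with edgeR (0.0027 and 0.0079) and with DESeq2 (0.0006 and 0.0061). Over left-out libraries the sign changed within these ranges: Ezh2 −0.0304 to 0.18, Eed −0.0482 to 0.0376, Suz12 −0.0461 to 0.18, Phf19 −0.24 to 0.10, Pcgf1 −0.73 to 0.17, Pcgf5 −0.0014 to 0.32, Cbx2 −0.34 to 0.0582, Rybp −0.16 to 0.17, Yaf2 −0.10 to 0.10, Bcor −0.32 to 0.0615, Bcorl1 −0.11 to 0.22 and L3mbtl2 −0.0057 to 0.41. The Bmi1 to Pcgf2 difference ranged from −0.0075 to 0.47, the Ezh1 to Ezh2 difference from −0.88 to −0.30 and the Ring1 to Rnf2 difference from −0.68 to −0.16. Depth limits cKO library A most, where 3 reads stand for a normalized count of 8.38.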
